A study of Mus musculus with 5 samples.

Results

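Genes for 9 DNA-binding regulators and 1 coactivator of male germ cells were followed through testis RNA and testis chromatin: Crem, Fhl5, Rfx2, Rfx4, Sox30, Spz1, Zfp37, Tcfl5, Hsf5 and Mybl1. They were found by gene name in the expression table, with every transcript row kept apart, and joined by transcript identifier to the binding table. The 10 genes had 33 of the 55350 transcript rows, and all 33 rows joined. The RNA libraries were Taf7l KO testis (Taf7l-/Y males, 3 months old) and WT testis (WT males, 3 months old), each 1 library of polyadenylated RNA from an equal pool of 6 extracts. The chromatin libraries, all labelled wild type and 3 months old, were a TAF7L ChIP, a Pol II ChIP and an IgG control, 1 library each; the shared protocol names chromatin of both genotypes. Taf7l is X-linked, so a Taf7l-/Y male has no other copy, and the labels give no further allele or driver. With 1 pooled library per condition no difference has a replicate check, and no p-value is given.

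CREM, the cAMP-responsive element modulator, binds the cAMP response element and is known in mouse round spermatids as the activator of the genes that package and build the sperm head and tail. In the testis it acts with the LIM-only coactivator ACT, which Fhl5 encodes, without the phosphorylation that CREB needs. RFX2 drives ciliary and flagellar genes of spermatids, and SOX30 is an HMG-box factor needed for the postmeiotic programme. MYBL1 (A-MYB), TCFL5 and HSF5 are regulators of meiotic cells: MYBL1 is the master factor of pachytene genes and piRNA precursors. TAF7L is a germ-cell paralogue of TAF7, a subunit of the general factor TFIID that loads RNA polymerase II at promoters.

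The RNA value is a mean signal per transcript with a standard deviation (SD), and the source does not say what either was taken over. With 1 library per genotype, the SD was read as technical, over parts of the same library, which could not be checked. It is printed after the ± sign, and on that reading says nothing about the spread between mice. No unit is given for the signal, which was read as a per-length value. Change is log2((KO + 1)/(WT + 1)), so a negative value means lower in Taf7l KO testis, and a gene with a mean signal of at least 1 was called higher or lower at 2-fold. All 33 rows passed that minimum. The targeted gene had a signal of 2.04 ± 0.60 in Taf7l KO testis and 13.2 ± 1.56 in WT testis, a change of -2.22. The median change of all 12414 expressed genes was 0.40, so a second change is given where it matters, after multiplying the KO signals by 0.711 to bring that median to 0 ("rescaled").

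Cell-type markers also moved between the pooled libraries. Over all expressed genes, 7.33% were called lower and 7.37% higher. Elongating spermatid markers were called lower in 9 of 9 genes, with a summed signal of 12409 in Taf7l KO testis and 68115 in WT testis. Round spermatid markers were called lower in 8 of 9, with 558 in KO and 1312 in WT. Spermatocyte markers had a median change of 0.81 (749 in KO and 545 in WT), spermatogonial markers 1.08 (107 in KO and 46.7 in WT), Sertoli markers 0.89 (1454 in KO and 755 in WT) and macrophage markers 1.101 (236 in KO and 35.0 in WT). Of the macrophage sums, Cd52 alone had 160 in KO and 3.17 in WT, while the other measured macrophage markers stood at 192 to 281% of the WT value. Whether the Cd52 signal came from macrophages was not tested. Leydig markers had a median change of 0.89 but a lower sum, 1538 in KO and 1901 in WT. Of the epididymis markers, 5 of 7 were measured and all 5 were called higher, with a summed signal of 189 in the KO library and 0.67 in the WT library. Crisp1 had 75.9 in KO and 0.042 in WT, and Defb2 had 23.7 in KO and was listed at 0 in WT. Lcn5 (0.058 in KO and 0 in WT) and Lcn8 (0.014 in KO and 0.013 in WT) were under the minimum in both libraries. In these bulk libraries, fewer cells of a type and less RNA per cell cannot be told apart, and the part that these marker shifts have in each result was not tested.

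The promoter sequences show how unlike these genes are at their starts. RefSeq (GRCm38.p6) gave 11 windows of 300 bases, from 250 before to 50 after a start, for 8 of the 10 genes; Crem and Mybl1 are named only. The windows of Spz1 and Fhl5 are shown because these genes were the ones called lower, and those of Sox30 and Hsf5 because they had the highest TAF7L promoter scores. All are written 5′ to 3′ on the gene's strand, with CpG in capitals.
Spz1, chr13:92576183-92576482, minus strand: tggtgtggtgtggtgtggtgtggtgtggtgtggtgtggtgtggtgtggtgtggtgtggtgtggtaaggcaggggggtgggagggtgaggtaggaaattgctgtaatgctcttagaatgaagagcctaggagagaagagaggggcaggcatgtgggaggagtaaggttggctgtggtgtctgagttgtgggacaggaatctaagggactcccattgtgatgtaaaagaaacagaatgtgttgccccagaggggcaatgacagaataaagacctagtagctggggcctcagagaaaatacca
Fhl5, first window, chr4:25242217-25242516, minus strand: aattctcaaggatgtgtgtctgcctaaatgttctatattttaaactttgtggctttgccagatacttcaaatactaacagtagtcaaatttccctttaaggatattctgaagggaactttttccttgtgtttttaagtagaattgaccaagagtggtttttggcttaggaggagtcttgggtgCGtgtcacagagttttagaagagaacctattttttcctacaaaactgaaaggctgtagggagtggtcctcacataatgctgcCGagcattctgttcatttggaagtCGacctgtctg
Fhl5, second window, chr4:25242803-25243102, minus strand: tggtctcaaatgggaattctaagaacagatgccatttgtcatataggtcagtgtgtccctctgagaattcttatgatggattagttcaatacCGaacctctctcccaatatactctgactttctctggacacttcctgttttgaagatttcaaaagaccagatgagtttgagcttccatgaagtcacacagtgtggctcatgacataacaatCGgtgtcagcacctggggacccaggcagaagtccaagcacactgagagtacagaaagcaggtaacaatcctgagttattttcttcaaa
Sox30, chr11:45980060-45980359, plus strand: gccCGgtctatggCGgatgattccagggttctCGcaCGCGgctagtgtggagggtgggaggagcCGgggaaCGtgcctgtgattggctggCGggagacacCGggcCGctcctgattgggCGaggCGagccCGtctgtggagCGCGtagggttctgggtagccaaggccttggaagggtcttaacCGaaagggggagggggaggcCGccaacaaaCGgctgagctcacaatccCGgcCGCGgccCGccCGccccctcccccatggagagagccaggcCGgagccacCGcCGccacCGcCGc
Hsf5, chr11:87616914-87617213, plus strand: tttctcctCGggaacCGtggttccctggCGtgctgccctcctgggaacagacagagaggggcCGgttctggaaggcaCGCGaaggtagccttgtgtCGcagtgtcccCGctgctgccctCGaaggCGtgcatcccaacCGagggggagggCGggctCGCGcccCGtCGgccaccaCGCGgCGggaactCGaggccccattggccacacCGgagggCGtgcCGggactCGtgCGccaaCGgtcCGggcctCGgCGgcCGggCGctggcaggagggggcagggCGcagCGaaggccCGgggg

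Spz1 had 0 CpG in its window and Fhl5 had 3 and 2, where the median of all 32851 windows was 7. Over 9657 expressed genes, each taken at its window with the most CpG, the median was 21. Sox30 had 28, Hsf5 34, Tcfl5 35 and Rfx2 38. Zfp37 had 17 and 27 in its 2 windows, which lie 344 bp apart. The CpG counts thus split the genes into the CpG-poor Spz1 and Fhl5 and a remainder with 17 or more, with Rfx4 on both sides: its upstream window had 20 and its downstream window, 82100 bp away, had 3. The 2 Rfx4 rows of the expression table start 82100 bp apart as well.

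Short words known for the binding sites of these factor families were sought on both strands, with positions counted from the gene start (1 is the first transcribed base, -1 the base before it). The CRE core TGACG was in the windows of Rfx2 (-224) and Rfx4 (17, upstream window), and is in 20.8% of all windows. The full site TGACGTCA, which holds that core, was in none of the 11 and is in 1.79% of all windows, so neither Spz1 nor Fhl5 held a CRE word. The RFX core GTTGCC, found in 12.5% of all windows, was in those of Spz1 (-13), Rfx2 (-116) and Zfp37 (-235, second window). Spz1 also had the SOX core ACAAT at -39, as had Sox30 at -25, the upstream Rfx4 window at -22 and the second Fhl5 window at -43 and 26; the word is in 31.0% of all windows. The MYB core AACTG was at -25 in the first Fhl5 window, at -236 and -140 in Tcfl5, at -226 in the second Zfp37 window and at 4 places in the downstream Rfx4 window, against 44.8% of all windows. TATAAA on the sense strand was in none of the 11 windows and is in 8.32% of all. CCAAT was at -169 and -137 in Sox30, -53 in Hsf5, -206 in Rfx2, -197 in the upstream Rfx4 window, -85 and 16 in the first Zfp37 window and -146 in the second Fhl5 window, and is in 37.4% of all windows. These are matches of letters only.

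Of the 10 genes, Spz1 and Fhl5 were called lower in Taf7l KO testis and 0 were called higher, where 7.33% of all expressed genes were called lower and 7.37% higher. The sign was negative in 6 genes and positive in 4, and the median over the 10 was -0.28 beside 0.40 over all genes. The change of 9 of the 10 genes was below the all-gene median, the exception being Mybl1. By row, 2 of 33 were called lower, beside 6.68% of all rows, and 27 rows were negative, 18 of them from Crem. Rescaled, Fhl5, Sox30, Spz1 and Zfp37 were called lower and 0 higher, beside 12.7% of all genes lower; the split over all genes was then 1581 lower and 128 higher, against 910 and 915 as deposited. The rescaled median of the 10 was -0.76.

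**Figure D1:**
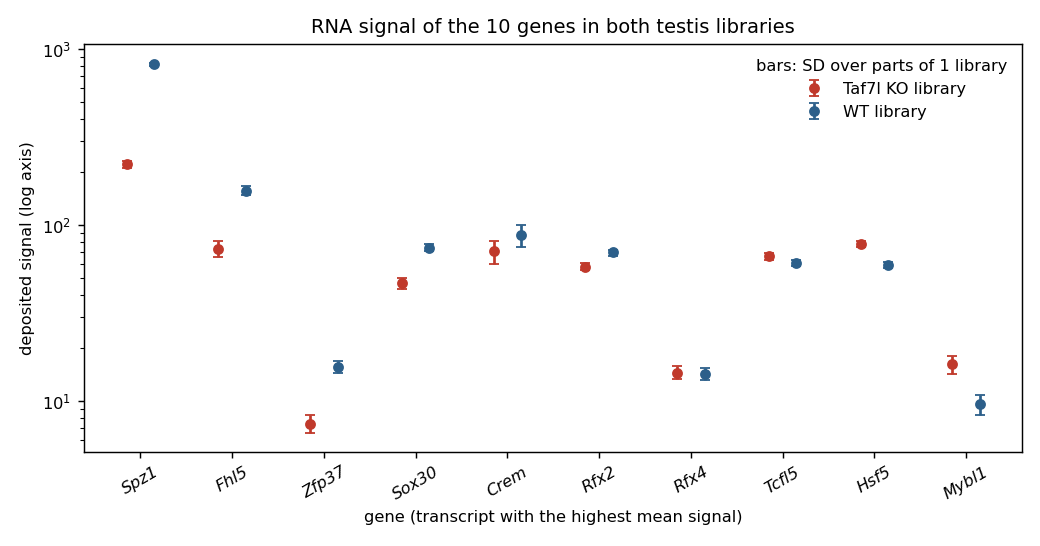
RNA signal of each gene (vertical log axis, deposited signal of the transcript with the highest mean) in the Taf7l KO library (red, left of each pair) and the WT library (blue), with bars of 1 SD over parts of the library. Spz1 stood at 221 in KO and 819 in WT, while Mybl1 and Hsf5 were the genes whose KO value was above the WT value by more than the summed SDs.

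Spz1 encodes a bHLH-zipper protein of male germ cells and had the highest signal of the 10 in both libraries. Its single row (uc007rkr.2, mm9 chr13:93344586-93346187) had a signal of 221 ± 9.86 in Taf7l KO testis and 819 ± 18.05 in WT testis. The KO value was 27.0% of the WT value, a change of -1.89 (-2.38 rescaled), and the SDs over parts did not come near each other. The WT signal exceeded that of 99.5% of expressed genes. The change ranked at the 1.15 percentile of all expressed genes from the lowest.

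Fhl5, the gene of the CREM coactivator ACT, ranked second in WT testis. Its single row (uc008sef.1, mm9 chr4:25127055-25170023) had 73.1 ± 7.38 in Taf7l KO testis and 156 ± 9.16 in WT testis, or 46.8% of the WT value, and the ranges of 1 SD did not overlap. The change was -1.08 (-1.57 rescaled), past the 2-fold line under both scalings and at the 6.43 percentile. Crem itself differed less than its coactivator gene under both scalings, as its rows show.

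Crem, known for several promoters and for splice forms that act as activators or repressors, had 18 rows in 7 different spans on chromosome 18 (mm9). All 18 rows were lower in Taf7l KO testis, at 66.7 to 81.3% of the WT signal, with changes from -0.41 to -0.19. In 15 of the 18 rows the libraries lay apart by more than the summed SDs over parts. The rows share reads and are not replicates, and strand was not stated, so the 1175 bp that the Crem rows share with Gm6225 (4.03 in KO and 4.81 in WT) could not be separated.

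The row with the highest signal was uc012ayw.1, a testis cDNA spanning 3287901 to 3299476, with 70.8 ± 10.5 in Taf7l KO testis and 87.4 ± 13.0 in WT testis. Its change was -0.30 (-0.78 rescaled), and the SDs over parts of the 2 libraries overlapped. A second row with the same higher coordinate, uc008dxv.2 (3287629 to 3299476), had 16.4 in KO and 20.8 in WT, and uc008dxm.2 (3266351 to 3299476) had 5.28 in KO and 6.84 in WT. Every other Crem row was at or below 4.03 in KO and 5.34 in WT.

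The rows fall into 4 groups by their higher coordinate, and all rows of a group had the same binding scores. The 14 rows that share the lower coordinate 3266351 did not, so the higher coordinate was read as the start. Rows with the same start share their scores if the position classes are set from the start, so this match is no separate result. The 8 rows that reach the highest coordinate, 3337587, had signals of 1.75 to 4.03 in KO and 2.27 to 5.34 in WT, and a TAF7L promoter score of 107 with a Pol II promoter score of 987. The 5 rows whose higher coordinate lies 9998 bp lower had 1.89 to 3.29 in KO and 2.47 to 4.30 in WT. For them the same 107 and 987 stood in the proximal class and the promoter class held 0. The group of uc012ayw.1, uc008dxv.2 and uc008dxm.2 has its higher coordinate 38111 bp below the highest. It had the same 107 and 987 in the distal class, and 0 for TAF7L and 181 for Pol II in the promoter class. The last 2 rows, 55842 bp below, had 1.62 to 2.46 in KO and 1.99 to 3.12 in WT and no promoter score, with the 181 in the distal class. Thus the strongest TAF7L and Pol II signal of the locus was assigned to the promoter of rows with low RNA signal, while the row with the most RNA had a Pol II promoter score and none for TAF7L. The ratio of the highest to the lowest Crem row was 43.8 in Taf7l KO testis and 44.0 in WT testis.

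**Figure D2:**
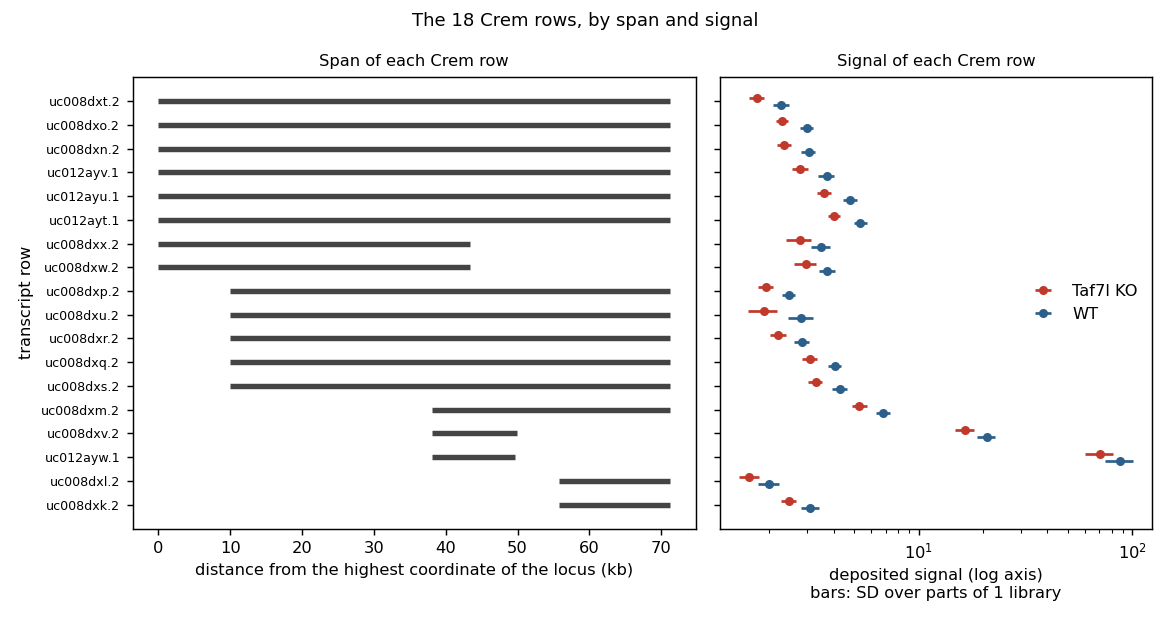
The 18 Crem rows in the same order in both panels: left, the span of each row as distance in kb from the highest coordinate of the locus; right, the signal (log axis) in the Taf7l KO library (red) and the WT library (blue), with bars of 1 SD over parts. The KO point lies left of the WT point in all 18 rows, and the row at 70.8 in KO and 87.4 in WT belongs to the group 38111 bp below the highest coordinate.

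Most textbook targets of CREM differed more than Crem or Fhl5 did. Of 13 listed target genes, all were measured and 12 were called lower, beside 7.33% of all expressed genes. The median change was -2.14, and the summed signal was 14472 in Taf7l KO testis and 69368 in WT testis. Rescaling left the count at 12, beside 12.7% of all genes. Prm1, which encodes protamine 1, was the most abundant, with 2991 ± 161 in KO and 17005 ± 636 in WT. Prm2, for protamine 2, had the largest decrease, with 2341 ± 92.9 in KO and 16972 ± 465 in WT and a change of -2.86. Ldhc, the germ-cell lactate dehydrogenase gene, was the exception, with 2307 in KO, 2666 in WT and a change of -0.21. Of the 13 targets only Ldhc had a TAF7L promoter score (104), beside 55.1% of all expressed genes with one. Prm1, Prm2, Tnp1, Tnp2, Odf1 and Smcp are also on the list of elongating spermatid markers. They hold most of the signal in the sums of both lists, so the 2 sums are not separate results. Acrv1 is also among the round spermatid markers.

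Partners of CREM and CREB did not move together. Of 17 listed genes, 16 were measured, 1 was called lower and 0 higher, beside 7.33% and 7.37% of all expressed genes. The median change was 0.47 (0.06 rescaled), while the summed signal was lower, 916 in Taf7l KO testis and 1119 in WT testis. Kif17, the kinesin gene whose testis product carries ACT, was the one called lower, with 14.3 ± 0.93 in KO and 47.5 ± 1.84 in WT and a change of -1.66. Fhl4, another LIM-only gene of the testis, was the most abundant, with 597 ± 22.1 in KO and 782 ± 21.5 in WT, a change of -0.39. Fhl1 had the largest increase, with 3.81 ± 0.41 in KO and 1.46 ± 0.30 in WT, or 261% of the WT value; with the pseudocount of 1 the change was 0.97, short of the call. Creb1 was under the minimum of 1.

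Neither Rfx2 nor Rfx4 was called under either scaling. Rfx2 (uc008ddf.2, mm9 chr17:56915319-56970431) had 57.9 ± 2.64 in Taf7l KO testis and 69.7 ± 2.77 in WT testis, 83.1% of the WT value and a change of -0.26 (-0.75 rescaled). A second Rfx2 row with the same span had 57.1 in KO and 69.0 in WT, and both rows lay apart by more than the summed SDs. The third, a shorter neonatal head cDNA, had 4.21 in KO and 4.83 in WT and did not.

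Rfx4, a relative whose testis role is less well known, had 2 rows with different starts on chromosome 10. The downstream row (uc007gkw.1, start 84300892) had 14.5 ± 1.23 in Taf7l KO testis and 14.2 ± 1.12 in WT testis, a change of 0.03 that became -0.43 when rescaled. The upstream row (uc007gkv.1, start 84218792) had 9.92 ± 0.97 in KO and 10.8 ± 0.80 in WT, a change of -0.12. Neither row's libraries lay apart by more than the summed SDs. The downstream row had a Pol II promoter score of 146 and no TAF7L score in any class, while the upstream row had 0 in both promoter classes, a TAF7L distal score of 49.0 and a Pol II proximal score of 166.

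Among the other RFX genes and co-factors, 7 of 8 were measured, 1 was called lower and 1 higher, beside 7.33% and 7.37% of all expressed genes. The median change of 0.08 became -0.29 when rescaled, and the summed signal was 83.5 in Taf7l KO testis and 94.7 in WT testis. Rfx1 was the one called lower, with 14.9 ± 1.25 in KO and 33.9 ± 2.28 in WT (change -1.14). Rfx7 was called higher as deposited, with 8.34 ± 3.58 in KO and 3.42 ± 2.07 in WT (change 1.08), and was not called when rescaled (0.65). Rescaled, 2 were called lower, Rfx1 and Rfx3, and 0 higher, beside 12.7% of all genes lower. Rfx3 had 4.26 ± 1.16 in KO and 9.10 ± 1.33 in WT (change -0.94, and -1.33 rescaled). Rfx8 was the most abundant, with 40.3 in KO and 38.1 in WT.

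Ciliary genes known to be driven by RFX factors were mostly within 2-fold. Of 14 listed, 13 were measured, 1 was called lower and 0 higher, beside 7.33% and 7.37% of all expressed genes. Their median was 0.12 and became -0.32 when rescaled. After rescaling 4 were called lower, beside 12.7% of all genes. Rsph1, a radial spoke gene and the most abundant, had 843 ± 23.6 in Taf7l KO testis and 600 ± 12.4 in WT testis. Hook1, which encodes a linker protein of the spermatid manchette, was the one called lower, with 30.1 ± 2.01 in KO and 75.01 ± 2.95 in WT (change -1.29). Dnah9, for an axonemal dynein heavy chain, had the largest increase, with 2.24 in KO and 1.198 in WT (change 0.56). All 13 measured genes had a TAF7L promoter score, beside 55.1% of all expressed genes.

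Sox30 was lower in Taf7l KO testis without reaching 2-fold. Its single row (uc011xtj.1, mm9 chr11:45793811-45831494) had 46.6 ± 3.47 in KO and 74.3 ± 3.57 in WT, 62.7% of the WT value, and the ranges of 1 SD did not overlap. The change was -0.66, and -1.14 when rescaled, which is past 2-fold. Sox30 had the highest TAF7L promoter score of the 10 genes, 160, above 95.6% of the rows that have a score.

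Other SOX genes had no such scores, as 0 of the 9 measured of 13 listed had a TAF7L promoter score, beside 55.1% of all expressed genes. Their median change was 0.78 (0.35 rescaled), with 1 called higher and 1 lower, beside 7.37% and 7.33% of all expressed genes. Sox5, which has a testis form, was the most abundant and the one called lower, with 14.3 ± 1.07 in Taf7l KO testis and 30.1 ± 1.68 in WT testis (change -1.02). Sox4 was called higher, with 6.63 ± 1.18 in KO and 2.69 ± 0.69 in WT (change 1.05, and 0.63 rescaled).

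Zfp37, a zinc finger gene of male germ cells, was lower in Taf7l KO testis and lay at the 2-fold line. Its row uc008tbx.1 (mm9 chr4:61850576-61869580) had 7.41 ± 0.86 in Taf7l KO testis and 15.6 ± 1.21 in WT testis, 47.4% of the WT value, and the ranges of 1 SD did not overlap. The other row, 100 bp shorter, had 7.08 in KO and 15.03 in WT. With the pseudocount of 1 their changes were -0.98 and -0.99, short of the call; with a pseudocount of 0.1 they were -1.07 and -1.08, past it. The change of uc008tbx.1 was -1.41 when rescaled.

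The meiotic regulators Mybl1, Hsf5 and Tcfl5 were at or above their WT signal as deposited, and Hsf5 and Tcfl5 were below it when rescaled. Mybl1 (uc007agq.1, mm9 chr1:9658915-9690290) had 16.2 ± 1.90 in Taf7l KO testis and 9.55 ± 1.22 in WT testis, 169% of the WT value, and the ranges of 1 SD did not overlap. Its change was 0.70, and 0.25 when rescaled, which left it the only one of the 10 genes above 0. Hsf5 (uc007kuc.1, mm9 chr11:87430665-87473044), for a heat shock factor family member needed in meiosis, had 78.1 ± 3.48 in KO and 59.2 ± 2.39 in WT, 132% of the WT value and also without overlap. Its change of 0.39 stood beside the all-gene median of 0.40 and became -0.09 when rescaled.

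Tcfl5, the gene of a bHLH factor of spermatocytes, had 3 rows, none of which lay apart by more than the summed SDs. The highest (uc008ojo.2, mm9 chr2:180356661-180377396) had 66.3 ± 3.14 in Taf7l KO testis and 61.0 ± 2.31 in WT testis, a change of 0.12 that became -0.37 when rescaled. The second had 65.0 in KO and 60.0 in WT. The shortest, uc008ojp.2, had 34.7 in KO and 31.2 in WT. The Tcfl5 rows share 230 bp with Col9a3 (1.32 in KO and 4.24 in WT).

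Genes known to be driven by MYBL1 stood slightly higher or lower depending on the scaling: the median of the 13 measured of 13 listed was 0.39 as deposited and -0.10 rescaled. As deposited, 3 were called higher (Mov10l1, Tdrd1 and Ddx39), beside 7.37% of all expressed genes. When rescaled, 0 were called higher, beside 128 of the 12414 expressed genes. Mov10l1, a piRNA pathway helicase gene, had the largest increase, with 77.4 ± 7.59 in Taf7l KO testis and 28.8 ± 3.68 in WT testis (change 1.396, and 0.91 rescaled). Mael, another piRNA pathway gene and the most abundant, had 536 in KO and 497 in WT. Morc2b had the largest decrease, with 64.9 in KO and 73.0 in WT (change -0.17). The spermatocyte markers, some of them on this list, had a median change of 0.81 (0.34 rescaled), and their part in the result was not tested.

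Family members of the other meiotic factors were few in number. Of 5 further HSF genes 3 were measured and 1 was called lower, beside 7.33% of all expressed genes. Hsf2, the most abundant, had 48.5 in Taf7l KO testis and 55.9 in WT testis, and Hsf1 had 12.9 in KO and 10.1 in WT. Hsfy2 was the one called lower, with 17.4 ± 2.54 in KO and 44.1 ± 3.80 in WT (change -1.298). Mybl2 was the 1 measured of 2 other MYB genes, with 3.07 ± 0.80 in KO and 4.02 ± 0.75 in WT. Of 18 other germ-cell regulators 15 were measured and 3 were called higher as deposited (Sohlh2, Stra8 and Usf2), beside 7.37% of all expressed genes. When rescaled, 0 of them were called higher, beside 128 of the 12414 expressed genes. Their median was 0.76 (0.34 rescaled). Sohlh2, a bHLH gene of spermatogonia, had 12.4 ± 1.59 in KO and 4.45 ± 1.01 in WT (change 1.297). Tesmin, a cysteine-rich regulator of meiotic cells, was the most abundant, with 72.4 in KO and 38.9 in WT, and Brdt, the testis bromodomain gene, had the lowest change on the list, 0.09, with 52.1 in KO and 49.0 in WT.

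**Figure D3:**
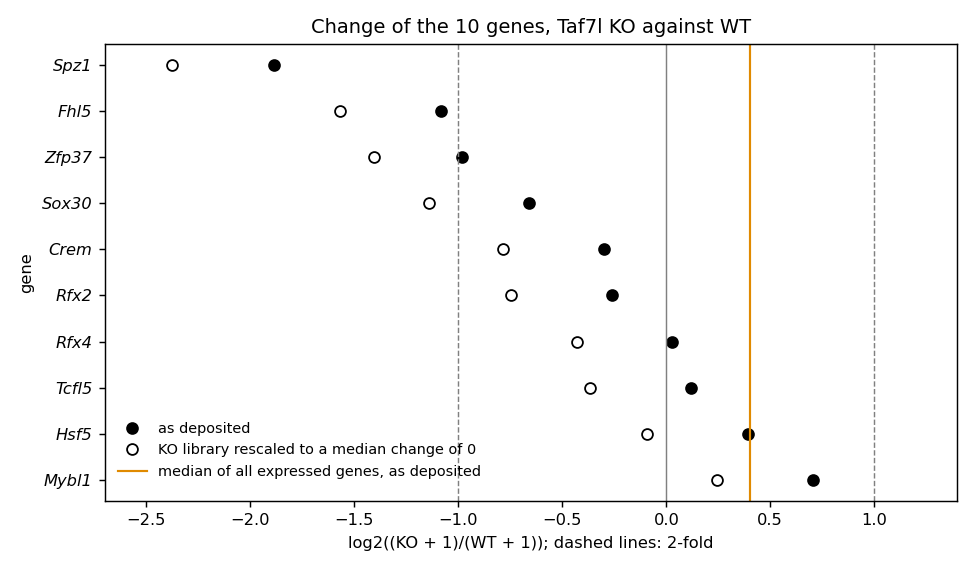
Change of each of the 10 genes (horizontal axis, log2((KO + 1)/(WT + 1))), as deposited (filled points) and with the KO library rescaled to a median change of 0 over all genes (open points), with lines at 0, at 2-fold and at the all-gene median of 0.40. Spz1 and Fhl5 lie beyond 2-fold under both scalings, Zfp37 and Sox30 when rescaled, and Mybl1 is the only open point above 0.

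The order of the levels differed between the libraries below Spz1. In Taf7l KO testis Spz1 was followed by Hsf5, Fhl5, Crem, Tcfl5, Rfx2, Sox30, Mybl1, Rfx4 and Zfp37. The neighbours in that order whose ranges of 1 SD over parts overlapped were Hsf5 and Fhl5, Fhl5 and Crem, Crem and Tcfl5, and Mybl1 and Rfx4. In WT testis the order was Spz1, Fhl5, Crem, Sox30, Rfx2, Tcfl5, Hsf5, Zfp37, Rfx4 and Mybl1, with overlaps between Crem and Sox30, Sox30 and Rfx2, Tcfl5 and Hsf5, and Zfp37 and Rfx4. Hsf5 thus stood next to Spz1 in KO and below Tcfl5 in WT, and Mybl1 was the lowest in WT only.

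**Figure D4:**
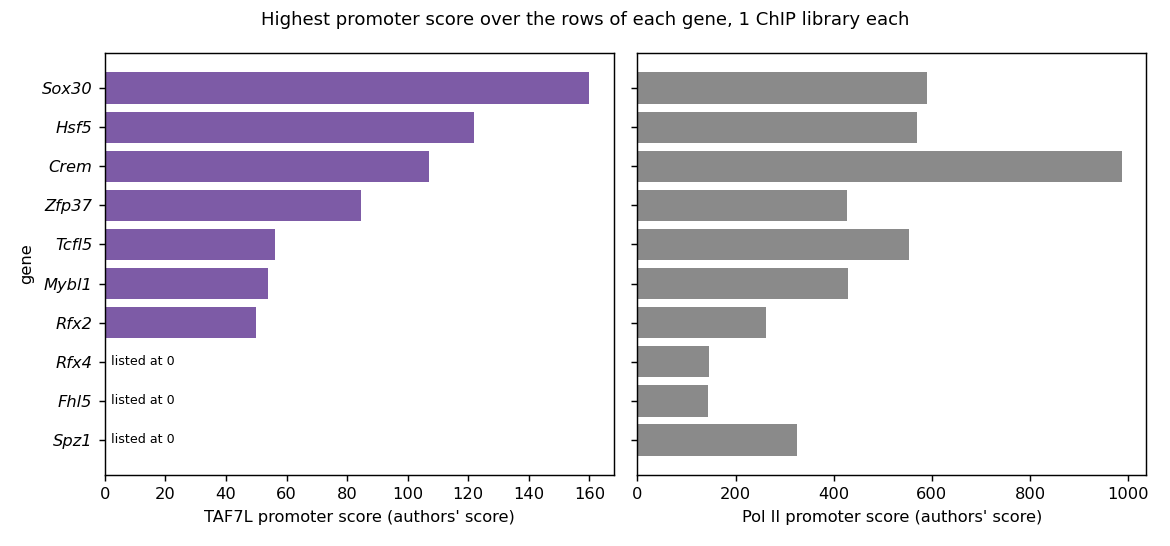
TAF7L (left) and Pol II (right) promoter scores of the 10 genes, as the highest over the rows of each gene in 1 ChIP library each, ordered by the TAF7L score. Sox30 has the highest TAF7L score at 160, Crem the highest Pol II score at 987, and Rfx4, Fhl5 and Spz1 are listed at 0 for TAF7L.

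In WT chromatin, 7 of the 10 genes had a TAF7L promoter score in at least 1 row, beside 55.1% of all expressed genes, and 6 had one in the row with the highest RNA signal, Crem being the difference. The scores are the authors', with no definition in the header, and the IgG library was not used here, so no background level stands beside them. They were 160 at Sox30, 122 at Hsf5, 107 at Crem, 84.5 at Zfp37, 56.1 at Tcfl5, 53.8 at Mybl1 and 49.8 at Rfx2, where the median of all scores above 0 was 71.4. Fhl5, Rfx4 and Spz1 were listed at 0. All 10 had a Pol II promoter score, beside 86.7% of all expressed genes. The Pol II scores were 987 at Crem, 589 at Sox30, 569 at Hsf5, 553 at Tcfl5, 429 at Mybl1, 428 at Zfp37, 326 at Spz1, 261 at Rfx2, 146 at Rfx4 and 143 at Fhl5, with a median of 309 over all scores above 0. Spz1, which had the most RNA, was thus close to the median Pol II score, and Fhl5 had the lowest score of the 10.

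Both genes called lower were among the 3 without a TAF7L promoter score, whose changes ran from -1.89 to 0.03. The 7 with a score had changes from -0.98 to 0.70, with a median of -0.26, and 0 were called lower with the pseudocount of 1. Zfp37, which had a score, was called lower with a pseudocount of 0.1 or 0.001, and both it and Sox30, which also had one, when rescaled. Over all expressed genes, 215 of the 6837 with a score were called lower (3.15%), against 695 of the 5577 without (12.5%). Genes without a score were also called higher more often, 561 (10.1%) against 354 with one (5.18%). The median change was 0.43 with a score and 0.36 without. The CpG count, taken at each gene's window with the most CpG, went with the score across the genome. Of 4790 expressed genes with more CpG than the median of 21, 73.3% had a TAF7L promoter score, against 42.0% of 4867 at or below it. Among the 10, Spz1 and Fhl5 were low in CpG and without a score, and Sox30, Hsf5, Tcfl5 and Rfx2 were high in CpG and had one. The part of the CpG content in either difference was not tested.

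Scores outside the promoter class often equalled the promoter score of a neighbouring gene to all printed digits, and can be the same signal assigned to both. The Spz1 distal scores of 97.9 for TAF7L and 1160.0 for Pol II equalled the promoter scores of Zfyve16, which had an RNA signal of 6.48 in Taf7l KO testis and 4.31 in WT testis. The Fhl5 distal scores of 124 and 706 equalled those of the Ufl1 promoter (7.71 in KO and 3.87 in WT). Zfyve16 had a change of 0.49 (0.08 rescaled) and Ufl1 0.84 (0.41 rescaled), beside the all-gene median of 0.40. Fam151b, with the same 97.9 and 1160.0 in its distal class, had 2.36 in KO and 3.64 in WT (change -0.46). Whether these shared scores bear on the RNA of Spz1 or Fhl5 was not tested. The Mybl1 distal scores of 70.3 and 855 were those of the Vcpip1 promoter (13.6 in KO and 8.47 in WT). The Crem distal scores of 47.2 and 288, in the 8 rows with a promoter score, were those of Cul2 (3.49 in KO and 2.10 in WT). For Rfx2 the Pol II distal score of 266 was the promoter score of 1700061G19Rik, which had 28.4 in KO and 63.9 in WT, a change of -1.14, without a TAF7L promoter score.

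**Figure D5:**
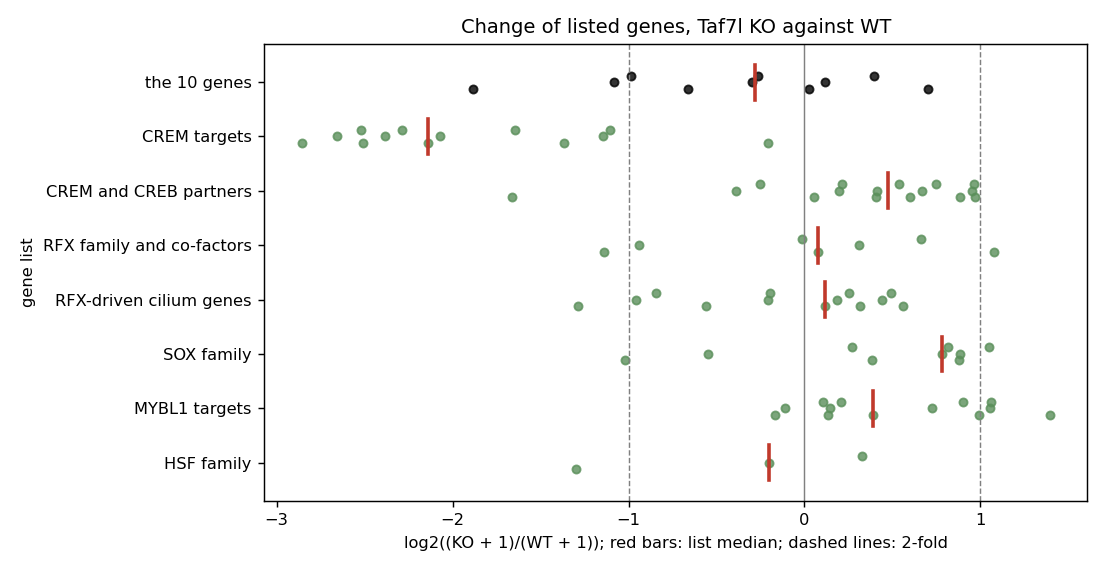
Change of every measured gene of each list (points; horizontal axis log2((KO + 1)/(WT + 1))), with the list's median as a red bar and dashed lines at 2-fold. The CREM targets lie at the left, with a median of -2.14, while the CREM and CREB partners centre on 0.47 and the 10 genes on -0.28.

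The genes most like Fhl5, Spz1 and Crem were sought over 4 values, the log2 signal in both RNA libraries and the log2 TAF7L and Pol II promoter scores of the row with the highest signal. For Fhl5 the nearest were Odf3, an outer dense fibre gene, at a distance of 0.13 (68.4 in Taf7l KO testis and 158 in WT testis), 4930578I06Rik at 0.17 (69.0 in KO and 161 in WT) and Tex43 at 0.21 (64.1 in KO and 147 in WT). For Spz1 they were Hmgb4, a testis HMG-box gene, at 0.21 (251 in KO and 807 in WT), H1fnt, a spermatid linker histone gene, at 0.40 (192 in KO and 673 in WT) and 4933411K16Rik at 0.48 (189 in KO and 936 in WT). For Crem they were Kcmf1 at 0.24 (83.7 in KO and 86.1 in WT), Ccdc30 at 0.28 (72.1 in KO and 81.8 in WT) and Bcl7c at 0.33 (62.7 in KO and 74.5 in WT). The likeness of these values, and the TAF7L promoter score of 0 that all 9 share with the rows they were matched to, come from the choice itself.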

How the data were processed

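Testis RNA of Taf7l KO and WT males and testis chromatin for TAF7L, Pol II and IgG were sequenced in 1 library each. Per the labels, the RNA libraries held 100 to 200 M reads and were made from 8 µg of pooled RNA; chromatin came from tissue of 10 mice, sheared to 175 to 225 bp, with 1 mg per precipitation and 4 µg of antibody or 8 µg of IgG. The submitters' processing notes name Bowtie, TopHat, Cufflinks and mm9; versions and the peak caller were not given in the sources used here.

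Per the file headers, the deposited expression table holds a mean signal and an SD per transcript and library, a log2 ratio of WT to KO and a ratio of SD to mean. The signal sums to 1387565.6 in KO and 1101497.1 in WT. Its precision, (mean/SD) squared, grew with span in rows of 500 to 3000 bp (log-log slopes 0.71 in KO and 0.76 in WT), so it was treated as per length. Without counts, no interval or detection floor is given. The median SD over mean was 0.137 in KO and 0.146 in WT. The deposited binding table holds the authors' TAF7L and Pol II score of each transcript, split into a promoter, a proximal and a distal class; 4 rows without a number were set aside, and 69 of its rows were not in the expression table.

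Change used a pseudocount of 1, which understates low genes, and a minimum mean of 1; the gene level is the row with the highest mean. Symbols were matched to RefSeq GRCm38.p6 names, giving 21684 genes from 46942 rows. Promoter windows came from the same RefSeq build, whose coordinates were not compared with mm9. Named genes were the 10 genes, Taf7l, the most abundant gene and largest increase and decrease of each list, and the 3 nearest genes. Rfx3, Tdrd1, Ddx39, Stra8, Usf2, Hsf1, Defb2, Lcn5, Lcn8 and genes that share a score or overlap were named after their values were seen. The members and lists were chosen with earlier results of these data known. The call of 2-fold changes was run on simulated data with large set changes and no added noise. The outcome was fixed by that design, so it does not bear on calls near 2-fold or on the choice of pseudocount. Alternatives were the pseudocount, scaling, minimum, threshold, gene level and score rule. Python 3.11 with pandas 2.3.3, numpy 2.4.6 and matplotlib 3.10.9 was used.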

Additional observations from a re-analysis of the deposited data

How the results depend on the processing

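The count of 2 genes lower and 0 higher was the same with the minimum mean at 5 or absent and with the median over rows as gene level. Rescaling KO to a median change of 0 gave 4 genes and 5 rows lower and a median over the genes of -0.76. Rescaling by the upper quartile gave 3 genes and 4 rows lower and a median of -0.43, pseudocounts of 0.1 or 0.001 gave 3 genes and 4 rows lower, and the sum over rows as gene level gave 3 genes lower, in each case through Zfp37. At 1.5-fold, 4 genes and 5 rows were lower and 1 gene and 1 row, Mybl1, higher. Among single rows no called change turned round; all 33 moved by more than their SD over parts when rescaled, 10 with the upper quartile, 3 with a pseudocount of 0.001 and 0 with 0.1. Below the call, the sign turned negative in 5 rows of Hsf5, Rfx4 and Tcfl5 when rescaled, and in 3 rows of Rfx4 and Tcfl5 with the upper quartile. TAF7L promoter scores counted 6 genes, 7 with any row and 5 above the lower quartile of scores; the Pol II count was 10 in each. No library could be left out, since each condition has 1. No paired analysis was possible because each genotype has 1 library and the result comes from no test.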
